A study of Mus musculus with 16 samples.

Results

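The genes described here encode plasma proteins of the complement and clotting systems that hepatocytes secrete into the blood. They were chosen by name, as 34 gene symbols of which 15 belong to complement and the others to clotting and its control, and all 34 were on the array. Of these, 33 passed the detection filter (a detection p under 0.05 on at least 4 of 16 arrays), 15 of complement and 18 of clotting, out of 9265 genes that passed among 18138 symbols. Each of the 33 was detected on all 16 arrays. The 1 member that did not pass was Fgb, which encodes the beta chain of fibrinogen: its single probe was detected on 3 of 16 arrays, with background-subtracted signals from -1.60 to 19.2 intensity units, and it was not tested.

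Complement is a cascade of plasma proteins that mark and puncture foreign or damaged cells. It is started by antibody, by lectins that bind sugars, or by spontaneous turnover of C3. All routes form C3 convertases, and these lead to a terminal complex that inserts into membranes. Clotting is a second protease cascade that ends with thrombin cutting fibrinogen into fibrin. Several clotting proteases need vitamin K for a modification made in the hepatocyte, and anticoagulant and fibrin-dissolving proteins of the same origin hold the cascade in check.

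Each of 16 liver RNA samples from 129SV/C57BL/6 mice was hybridised to its own Illumina bead array, which gave 4 groups of 4 arrays. The groups were c-Met knockout on the high cholesterol diet (HC KO), wild type on the same diet (HC WT), c-Met knockout on regular chow (chow KO) and wild type on regular chow (chow WT). The high cholesterol food contained 0.5% sodium cholate beside 2% cholesterol, and feeding lasted 30 days in all groups. c-Met, a receptor tyrosine kinase, binds hepatocyte growth factor, and the series title describes its loss as conditional, in the liver. Sources used here give neither the Cre line nor the mice's age and sex. Nothing in the labels states that each sample is a separate animal, so the p-values measure the spread between samples, which may be technical.

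Each array detected 10028 to 11952 of 25697 probes, and the number of arrays limits the precision of every comparison. The Met probe lay near background: it was detected on 1 of 4 HC KO, 1 of 4 HC WT, 3 of 4 chow KO and 2 of 4 chow WT arrays, so it could not check the genotype labels. Of 10 hepatocyte markers 9 passed the filter, and 8 of these were detected on all 16 arrays. Of 10 markers of recruited macrophages 6 passed the filter, and of these 4 were higher on the diet in KO and 6 in WT. Gpnmb and Mmp12 among them were detected on 8 and 7 of 16 arrays, with chow means of 4.47 to 4.52. They may have passed the filter only through the diet arrays, so their rise may follow in part from the filter. The summed signal of the 6 was 1151 to 2419 in HC KO and 1669 to 6894 in HC WT, against 674 to 758 in chow KO and 586 to 712 in chow WT. Whether these cells took part in the member changes was not tested, and in whole liver RNA fewer cells of a type and less RNA per cell cannot be told apart. HC KO replicate 3 stood apart: its mean log2 deviation over 20 genes of the IL-6 and acute phase list was 1.56, against -0.02 to 0.14 on the other HC KO arrays, and over 10 Kupffer cell markers 1.41, against -0.15 to 0.33. It was the highest HC KO array for 19 of 33 members, HC KO replicate 2 was the lowest for 15, and HC WT replicate 3 was the lowest HC WT array for 19.

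The first question was what the high cholesterol diet did to these transcripts in each genotype. Values are log2 normalized signals, and differences between groups are log2 changes ± standard error from a limma fit across all 9265 genes, with 4 arrays in each group. A member was counted as changed where the Benjamini-Hochberg adjusted p over all genes was under 0.05. In KO livers 14 of 33 members changed (42.4%), 9 higher and 5 lower, where 27.6% of all genes changed (15.2% higher and 12.4% lower). In WT livers 14 of 33 changed (42.4%), 6 higher and 8 lower, where 25.4% of all genes changed (13.7% higher and 11.8% lower). At an unadjusted limma p under 0.05 there were 16 members in KO, where 39.9% of all genes passed, and 16 in WT, where 38% did. The arrays of the 2 diets did not overlap for 16 members in KO, where 30.3% of all genes had no overlap, and for 11 in WT, where 25.4% had none. These splits depend on the scaling between arrays. When arrays were scaled to the median of all probes in place of quantile normalization, 2 members were higher and 21 lower in KO, and 2 higher and 27 lower in WT. Of all 9265 genes, 951 were then higher and 2842 lower in KO, and 973 higher and 3198 lower in WT. The median of all genes was itself at -0.24 in KO and -0.26 in WT. When arrays were scaled to the median of the probes detected on all arrays, the member counts were 7 higher and 5 lower in KO, and 3 higher and 12 lower in WT. The share of all genes called with this scaling is not given here, so these member counts cannot be set beside it. With this scaling the median of all genes was -0.01 in KO and -0.04 in WT. The median of the 1801 genes at least as bright as the dimmest member was -0.11 in KO and -0.21 in WT, so bright genes as a whole also moved down.

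Both complement and clotting members went in both directions. In KO, complement had 5 higher and 3 lower of 15 and clotting 4 higher and 2 lower of 18, with median changes of -0.09 and 0.10 against -0.03 over all genes. In WT, complement had 2 higher and 4 lower and clotting 4 higher and 4 lower, with median changes of -0.005 and 0.04 against -0.02 over all genes. Over all members the median was 0.09 in KO and 0.02 in WT, while single members moved by more than 1 log2 unit in either direction. Leaving out HC KO replicate 2 left 10 higher and 1 lower in KO, with none of the complement members lower, and leaving out HC KO replicate 3 left 9 higher and 3 lower. Without chow KO replicate 2, KO had 9 higher and 2 lower. Without chow KO replicate 3 or replicate 4 it had 9 higher and 3 lower, and WT had 6 higher and 5 lower without HC WT replicate 3 and 4 higher and 7 lower without chow WT replicate 1.

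Taken by gene, with the brightest probe of each, 6 members were higher in both genotypes (Cfb, C2, F2, Pros1, Fgg and Hrg). In both genotypes 2 were lower (C8b and F11). A further 3 passed as higher in KO (Mbl2, C8a and Cfi), 3 as lower in KO (Masp1, C6 and F5) and 6 as lower in WT (Mbl1, Masp2, C8g, F7, F10 and F13b), each without passing in the other genotype. The direction of C2 and Fgg in WT, of Fgg and Cfi in KO, and of F2 in both turned negative with scaling to the median of all probes. With that scaling Mbl2, C2 and C8a in KO and Pros1 in both genotypes stayed positive but did not pass. The calls of C2 and Fgg in WT, of Cfi in KO and of F2 in both also ended with scaling to the median of the detected probes. The other 13 members passed in neither, and 30 of 33 had the same sign in both genotypes.

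**Figure D1:**
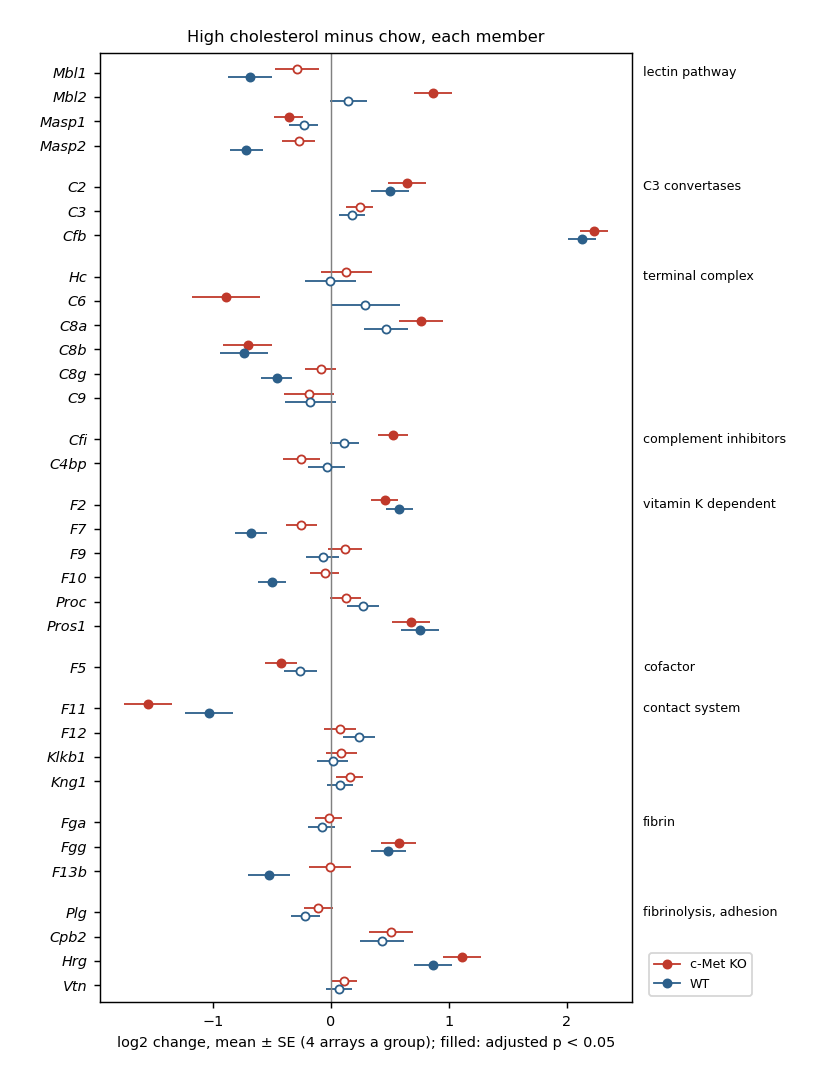
Log2 change between the diets (high cholesterol minus chow) of each of the 33 tested members, grouped by role, with c-Met KO in red above WT in blue; points are limma estimates, bars 1 standard error, and filled points have an adjusted p under 0.05. Cfb lies far to the right at 2.23 in KO and 2.13 in WT and F11 furthest to the left at -1.55 and -1.03, while F2, C2, Fgg and Cfi, drawn to the right, turn to the left in at least 1 genotype when arrays are scaled to the median of all probes.

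The lectin pathway members split. Mbl1 and Mbl2 encode the mannose-binding lectins that recognise sugar patterns, and Masp1 and Masp2 the proteases bound to them. Mbl1 had log2 signals of 10.87, 10.55, 11.18 and 11.07 in HC KO and 10.61, 10.44, 10.43 and 11.20 in HC WT, against 11.06, 11.38, 11.24 and 11.15 in chow KO and 11.75, 11.27, 11.19 and 11.20 in chow WT. On the diet 3 of 4 HC WT arrays were low and replicate 4 lay within the chow WT range. Mbl1 fell by 0.69 ± 0.19 in WT (adjusted p = 0.0126) and was at -0.29 ± 0.19 in KO (adjusted p = 0.256). Mbl2 had 11.76, 12.02, 11.48 and 11.64 in HC KO and 11.56, 11.27, 11.21 and 11.39 in HC WT, against 10.94, 10.87, 10.97 and 10.69 in chow KO and 11.37, 11.38, 10.74 and 11.36 in chow WT. Every HC KO array was above every chow KO array, while the WT groups overlapped. Mbl2 rose by 0.86 ± 0.16 in KO (adjusted p = 0.000873) and was at 0.15 ± 0.16 in WT (adjusted p = 0.529).

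Masp2 cleaves C4 and C2 once the lectin has bound. Its log2 signals were 11.44, 11.31, 10.95 and 11.27 in HC KO and 11.26, 10.99, 10.66 and 10.96 in HC WT, against 11.59, 11.57, 11.43 and 11.49 in chow KO and 11.78, 11.74, 11.57 and 11.65 in chow WT. The WT groups did not overlap, and Masp2 fell by 0.72 ± 0.14 in WT (adjusted p = 0.00139), against -0.28 ± 0.14 in KO (adjusted p = 0.149). Masp1 ranged from 10.07 to 10.38 in HC KO and 10.08 to 10.43 in HC WT, against 10.44 to 10.76 in chow KO and 10.37 to 10.59 in chow WT. It fell by 0.36 ± 0.12 in KO (adjusted p = 0.0386), a call that ended without any 1 of 6 arrays, and was at -0.23 ± 0.12 in WT (adjusted p = 0.179).

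Of the members that build C3 convertases, Cfb moved most. Cfb encodes factor B, the protease of the alternative pathway convertase, C2 the protease of the classical and lectin pathway convertase, and C3 the central component that both split. Cfb had log2 signals of 11.42, 11.65, 11.68 and 11.63 in HC KO and 11.60, 11.29, 11.28 and 11.44 in HC WT, against 9.24, 9.31, 9.38 and 9.52 in chow KO and 9.30, 9.34, 9.27 and 9.19 in chow WT. The lowest array on the diet lay more than 1 log2 unit above the highest chow array. Cfb rose by 2.23 ± 0.12 in KO (4.70-fold, adjusted p = 1.33e-09) and by 2.13 ± 0.12 in WT (4.38-fold, adjusted p = 3.21e-09). It passed in both genotypes under every one of 27 settings tried.

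C2 had log2 signals of 11.68, 12.15, 12.19 and 12.33 in HC KO and 12.04, 12.05, 11.60 and 11.59 in HC WT, against 11.42, 11.51, 11.40 and 11.43 in chow KO and 11.09, 11.48, 11.21 and 11.47 in chow WT. Diet and chow arrays did not overlap in either genotype, though by little in WT. C2 rose by 0.64 ± 0.16 in KO (adjusted p = 0.00647) and by 0.50 ± 0.16 in WT (adjusted p = 0.028), and with scaling to the median of all probes it was at 0.05 in KO and at -0.30 in WT. The WT call ended without HC WT replicate 1 or 2 or chow WT replicate 1 or 3. C3 lay between 14.09 and 14.47 in HC KO and 14.11 and 14.27 in HC WT, against 13.95 to 14.09 in chow KO and 13.96 to 14.11 in chow WT. Its changes of 0.24 ± 0.11 in KO (adjusted p = 0.116) and 0.18 ± 0.11 in WT (adjusted p = 0.255) did not pass.

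The members of the terminal complex went in both directions. C5 (Hc), C6, C8 and C9 assemble in that order into the membrane pore, and C8 is made of an alpha, a beta and a gamma chain from 3 genes, C8a, C8b and C8g. C8a had log2 signals of 10.69, 10.35, 10.38 and 10.74 in HC KO and 10.87, 10.32, 10.20 and 11.14 in HC WT, against 9.60, 9.91, 9.70 and 9.91 in chow KO and 10.22, 10.17, 9.94 and 10.34 in chow WT. C8b had 11.30, 10.34, 11.00 and 11.38 in HC KO and 11.21, 10.92, 10.62 and 11.40 in HC WT, against 11.52, 11.84, 11.80 and 11.69 in chow KO and 11.67, 11.92, 11.61 and 11.89 in chow WT. C8a was thus higher on every HC KO array than on any chow KO array, and C8b was lower on every diet array than on any chow array of its genotype. C8a rose by 0.76 ± 0.19 in KO (adjusted p = 0.00606) and was at 0.46 ± 0.19 in WT (adjusted p = 0.0754). C8b fell by 0.71 ± 0.21 in KO (adjusted p = 0.0175) and by 0.74 ± 0.21 in WT (adjusted p = 0.015).

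C8b did not pass in KO without HC KO replicate 2 (-0.49, adjusted p = 0.057), nor in WT without HC WT replicate 3 (-0.60, adjusted p = 0.0515). C8g, the lipocalin-like gamma chain, had 13.78, 13.67, 13.42 and 13.41 in HC KO and 13.52, 13.26, 13.08 and 13.36 in HC WT, against 13.74, 13.69, 13.61 and 13.59 in chow KO and 13.86, 13.58, 13.86 and 13.75 in chow WT. It fell by 0.46 ± 0.13 in WT (adjusted p = 0.0164), which also ended without HC WT replicate 3 (-0.38, adjusted p = 0.0515), and was at -0.09 ± 0.13 in KO (adjusted p = 0.659). For this 1 protein the alpha chain gene was above 0 and the beta and gamma chain genes below 0 in both genotypes, except that C8a in WT was at -0.13 with scaling to the median of all probes. Of these values C8g in KO and C8a in WT did not pass, and C8g in KO lay within 1 standard error of 0.

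C6, the first protein to join C5b, had log2 signals of 10.98, 9.75, 11.07 and 11.31 in HC KO and 12.22, 11.83, 11.13 and 12.00 in HC WT, against 11.31, 12.20, 11.49 and 11.66 in chow KO and 11.50, 11.34, 11.69 and 11.50 in chow WT. HC KO replicate 2 was the lowest of all 16 arrays, and the HC KO and chow KO arrays met at 11.31. C6 fell by 0.89 ± 0.29 in KO (adjusted p = 0.0309) and was at 0.29 ± 0.29 in WT (adjusted p = 0.489). Without HC KO replicate 2 the KO change was -0.55 (adjusted p = 0.0974). The KO call also ended without chow KO replicate 2 or 4, with no detection filter and with only the groups compared. Hc was at 0.13 ± 0.22 in KO and C9 at -0.19 ± 0.21, and in WT C9 was at -0.17 ± 0.21; none of these passed (adjusted p = 0.687, 0.54 and 0.581).

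Of the complement inhibitors, Cfi passed in KO and C4bp in neither genotype. Cfi encodes factor I, the protease that inactivates C3b and C4b, and C4bp the C4b-binding protein that serves as its cofactor. Cfi had 13.04, 12.75, 13.23 and 13.08 in HC KO and 13.01, 12.91, 12.82 and 13.00 in HC WT, against 12.39, 12.67, 12.38 and 12.56 in chow KO and 12.70, 12.87, 12.93 and 12.79 in chow WT. All HC KO arrays were above the chow KO arrays, and Cfi rose by 0.53 ± 0.13 in KO (adjusted p = 0.00547) but was at -0.17 there with scaling to the median of all probes. In WT it was at 0.11 ± 0.13 (adjusted p = 0.537). C4bp was at -0.25 ± 0.15 in KO and -0.04 ± 0.15 in WT (adjusted p = 0.237 and 0.887).

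Among the vitamin K dependent proteins, F2 and Pros1 rose in both genotypes and F7 and F10 fell in WT, with the direction of F2 turning negative with scaling to the median of all probes (-0.24 in KO and -0.38 in WT). F2 encodes prothrombin, and its log2 signals were 12.98, 12.94, 13.12 and 12.90 in HC KO and 12.94, 13.00, 12.90 and 12.91 in HC WT, against 12.46, 12.43, 12.51 and 12.71 in chow KO and 12.18, 12.50, 12.31 and 12.44 in chow WT. F2 rose by 0.46 ± 0.12 in KO (adjusted p = 0.00768) and by 0.58 ± 0.12 in WT (adjusted p = 0.00171). Pros1 encodes protein S, the cofactor of the anticoagulant protein C. It had 9.89, 9.82, 10.54 and 10.20 in HC KO and 10.29, 10.29, 10.35 and 10.16 in HC WT, against 9.44, 9.52, 9.45 and 9.31 in chow KO and 9.56, 9.83, 9.20 and 9.48 in chow WT. It rose by 0.68 ± 0.16 in KO (adjusted p = 0.00472) and by 0.75 ± 0.16 in WT (adjusted p = 0.00262), with no overlap between the diets in either genotype. Neither call held with scaling to the median of all probes (limma adjusted p = 0.213 in KO and 0.30 in WT).

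F7 encodes the protease that starts clotting together with tissue factor, and F10 the protease that it activates. F7 had log2 signals of 9.49, 9.39, 9.70 and 9.31 in HC KO and 8.85, 9.39, 9.25 and 9.26 in HC WT, against 9.70, 9.72, 9.88 and 9.60 in chow KO and 9.81, 9.84, 9.84 and 9.98 in chow WT. F10 had 12.14, 12.31, 12.55 and 12.13 in HC KO and 11.77, 11.82, 11.90 and 11.81 in HC WT, against 12.32, 12.33, 12.46 and 12.25 in chow KO and 12.26, 12.51, 12.25 and 12.30 in chow WT. For both genes the HC WT arrays lay below all chow WT arrays, and for F10 they also lay below all HC KO arrays. F7 fell by 0.68 ± 0.13 in WT (adjusted p = 0.00167) and was at -0.25 ± 0.13 in KO (adjusted p = 0.173). F10 fell by 0.50 ± 0.12 in WT (adjusted p = 0.00641) and was at -0.05 ± 0.12 in KO (adjusted p = 0.775). Both WT calls held under every one of 27 settings. Scaling to the median of all probes or of the detected probes moved bright genes down in WT (medians of -0.69 and -0.21). Those settings therefore could not challenge a fall. F9, the haemophilia B protease, was at 0.12 ± 0.14 in KO and -0.07 ± 0.14 in WT, and Proc, protein C itself, at 0.12 ± 0.13 and 0.27 ± 0.13; neither passed (adjusted p of 0.571, 0.744, 0.512 and 0.142 in that order).

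F5 encodes factor V, the cofactor of the protease that makes thrombin. Its signals ranged from 9.77 to 9.99 in HC KO and 9.46 to 9.91 in HC WT, against 10.11 to 10.41 in chow KO and 9.75 to 10.25 in chow WT. It fell by 0.42 ± 0.14 in KO (adjusted p = 0.0314), which ended without any 1 of 6 arrays, and was at -0.26 ± 0.14 in WT (adjusted p = 0.179).

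With the brightest probe of each gene, F11 was the 1 contact system member that changed, and 3 did not pass, although other probes of Kng1 and F12 did. F11 encodes factor XI, the protease that amplifies clotting by activating factor IX; F12 and Klkb1 encode factor XII and plasma prekallikrein, which activate each other, and Kng1 kininogen, their cofactor. F11 had log2 signals of 10.16, 9.33, 9.42 and 9.96 in HC KO and 10.00, 10.07, 10.87 and 10.38 in HC WT, against 11.19, 11.42, 11.08 and 11.39 in chow KO and 11.31, 11.38, 11.22 and 11.54 in chow WT. Every diet array was below every chow array. F11 fell by 1.55 ± 0.20 in KO (2.93-fold lower, adjusted p = 4.05e-05) and by 1.03 ± 0.20 in WT (2.04-fold lower, adjusted p = 0.00149), and both calls held under every one of 27 settings. Klkb1 had 10.89, 10.57, 10.60 and 11.03 in HC KO and 10.85, 10.82, 10.87 and 11.02 in HC WT, against 10.48, 10.83, 10.74 and 10.68 in chow KO and 10.84, 11.06, 10.79 and 10.80 in chow WT, with overlap in both genotypes. Klkb1 was at 0.09 ± 0.13 in KO and 0.01 ± 0.13 in WT (adjusted p = 0.649 and 0.952), and F12 at 0.08 ± 0.13 and 0.24 ± 0.13 (adjusted p = 0.697 and 0.204). Kng1 was at 0.16 ± 0.11 in KO and 0.08 ± 0.11 in WT (adjusted p = 0.304 and 0.647).

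Of the fibrin genes, Fgg moved and Fga did not pass. Fga and Fgg encode the alpha and gamma chains of fibrinogen, which is built from equal numbers of alpha, beta and gamma chains, and F13b the carrier subunit of the enzyme that crosslinks fibrin. Fgg had log2 signals of 13.23, 13.25, 13.68 and 13.18 in HC KO and 12.92, 13.17, 13.21 and 13.14 in HC WT, against 12.72, 12.83, 12.82 and 12.68 in chow KO and 12.29, 12.61, 12.92 and 12.67 in chow WT. The KO groups did not overlap, and the WT groups met at 12.92. Fgg rose by 0.58 ± 0.15 in KO (adjusted p = 0.00809; 0.46, adjusted p = 0.0281 without HC KO replicate 3) and by 0.49 ± 0.15 in WT (adjusted p = 0.0218), and with scaling to the median of all probes it was at -0.12 in KO and -0.46 in WT. The WT call ended without HC WT replicate 2 or 3 or chow WT replicate 1. Fga was at -0.02 ± 0.11 in KO and -0.08 ± 0.11 in WT (adjusted p = 0.913 and 0.649). F13b fell by 0.53 ± 0.18 in WT (adjusted p = 0.0389), which ended without any 1 of 5 arrays, and was at -0.01 ± 0.18 in KO (adjusted p = 0.972).

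Among the proteins that regulate fibrin removal and adhesion, Hrg rose by its brightest probe, while its second probe did not pass in either genotype. Hrg encodes histidine-rich glycoprotein, a plasma protein that binds heparin and plasminogen; Plg encodes plasminogen, the precursor of the enzyme that dissolves fibrin, Cpb2 a carboxypeptidase that slows this, and Vtn vitronectin. Hrg had log2 signals of 9.93, 10.23, 10.63 and 9.90 in HC KO and 9.90, 9.76, 9.54 and 9.43 in HC WT, against 9.06, 9.01, 9.04 and 9.12 in chow KO and 8.63, 8.98, 8.64 and 8.93 in chow WT. All diet arrays were above all chow arrays. Hrg rose by 1.11 ± 0.16 in KO (adjusted p = 0.000107; 0.96, adjusted p = 0.000266 without HC KO replicate 3) and by 0.87 ± 0.16 in WT (adjusted p = 0.00105). Cpb2 was at 0.51 ± 0.19 in KO (adjusted p = 0.0527) and 0.43 ± 0.19 in WT (adjusted p = 0.0965), and in KO at 0.27 (adjusted p = 0.169) without HC KO replicate 3, where its signal was 13.26 against 12.22 to 12.48 on the other HC KO arrays. Plg was at -0.11 ± 0.12 in KO and -0.22 ± 0.12 in WT, and Vtn at 0.11 ± 0.11 and 0.07 ± 0.11; none passed, with adjusted p between 0.203 and 0.676.

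**Figure D2:**
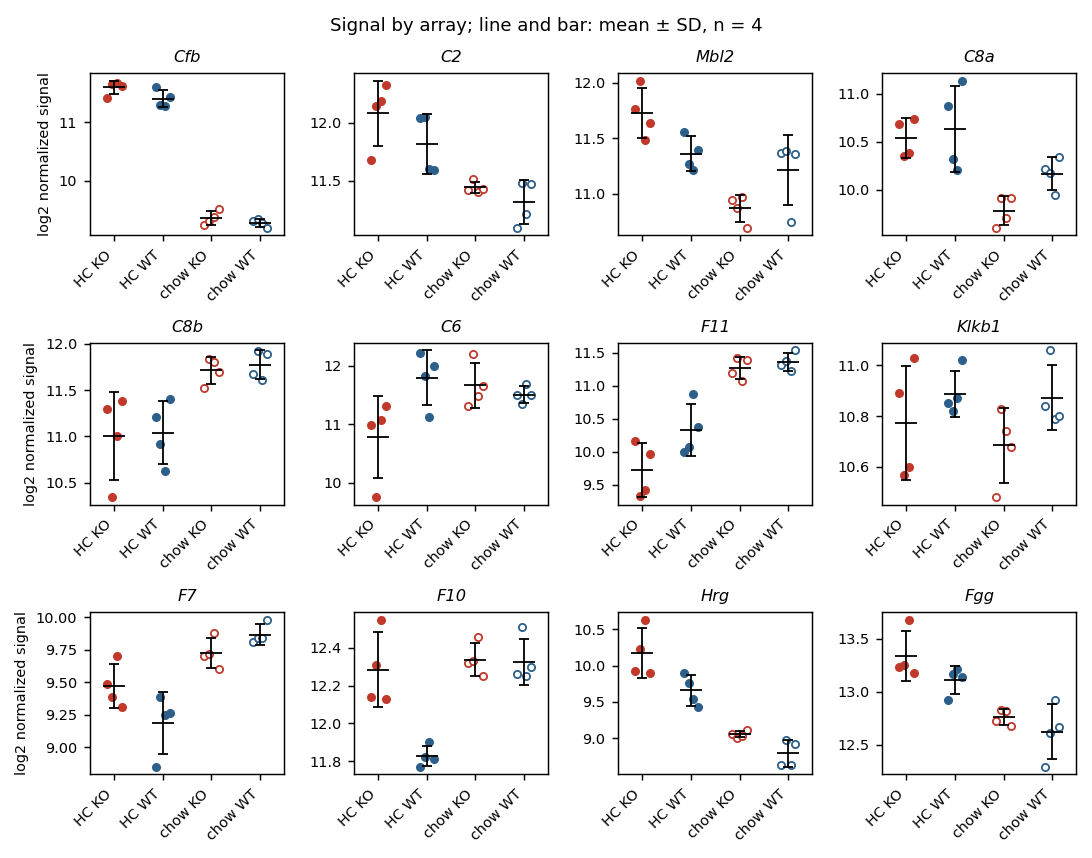
Log2 normalized signal of the brightest probe of 12 members on each of the 16 arrays, as HC KO, HC WT, chow KO and chow WT from left to right. Bars are the mean ± SD of 4 arrays, and each panel has its own axis. Cfb and Hrg are higher and F11 and C8b lower on all diet arrays than on the chow arrays of the same genotype, Klkb1 overlaps, and F10 is low in HC WT, at 11.77 to 11.90, against 12.13 to 12.55 in HC KO and 12.25 to 12.51 in chow WT.

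The second question was what the loss of c-Met changed on each diet. On the high cholesterol diet 0 of 33 members passed with limma between KO and WT, where 0.162% of all genes did (0.054% higher and 0.108% lower), and 6 members had an unadjusted p under 0.05, where 9.77% of all genes did. On chow 0 of 33 passed, as did 0 of all 9265 genes, and 3 members had an unadjusted p under 0.05, where 15.9% of all genes did. In none of the 27 settings did a member pass in either comparison. A p that misses the threshold does not show that the genotypes were alike.

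F10, C6, F11 and Hrg had the lowest p on the high cholesterol diet. F10 was at 0.46 ± 0.12 (KO 12.28 ± 0.20 and WT 11.83 ± 0.05, SD, n = 4 each; limma adjusted p = 0.201), and it was the only member whose HC KO and HC WT arrays did not overlap, where 3.92% of all genes had no overlap. C6 was at -1.02 ± 0.29 (KO 10.78 ± 0.70 and WT 11.80 ± 0.47, SD, n = 4 each; limma adjusted p = 0.221), and at -0.68 (adjusted p = 0.414) without HC KO replicate 2. F11 was at -0.61 ± 0.20 (adjusted p = 0.30) and Hrg at 0.51 ± 0.16 (adjusted p = 0.29). Mbl2 at 0.37 ± 0.16 and Hc at 0.46 ± 0.22 completed the 6 (adjusted p = 0.456 and 0.508).

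On chow the arrays of 4 members did not overlap between KO and WT, where 13.7% of all genes had no overlap: Hc, C8a, Cfi and Hrg. Cfi was at -0.32 ± 0.13 (KO 12.50 ± 0.14 and WT 12.82 ± 0.10, SD, n = 4 each; limma adjusted p = 0.231) and C8a at -0.39 ± 0.19 (adjusted p = 0.317). Hc was at 0.32 ± 0.22 and Hrg at 0.26 ± 0.16 (adjusted p = 0.476 and 0.433). F13b, which overlapped, was at -0.48 ± 0.18 (adjusted p = 0.216).

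**Figure D3:**
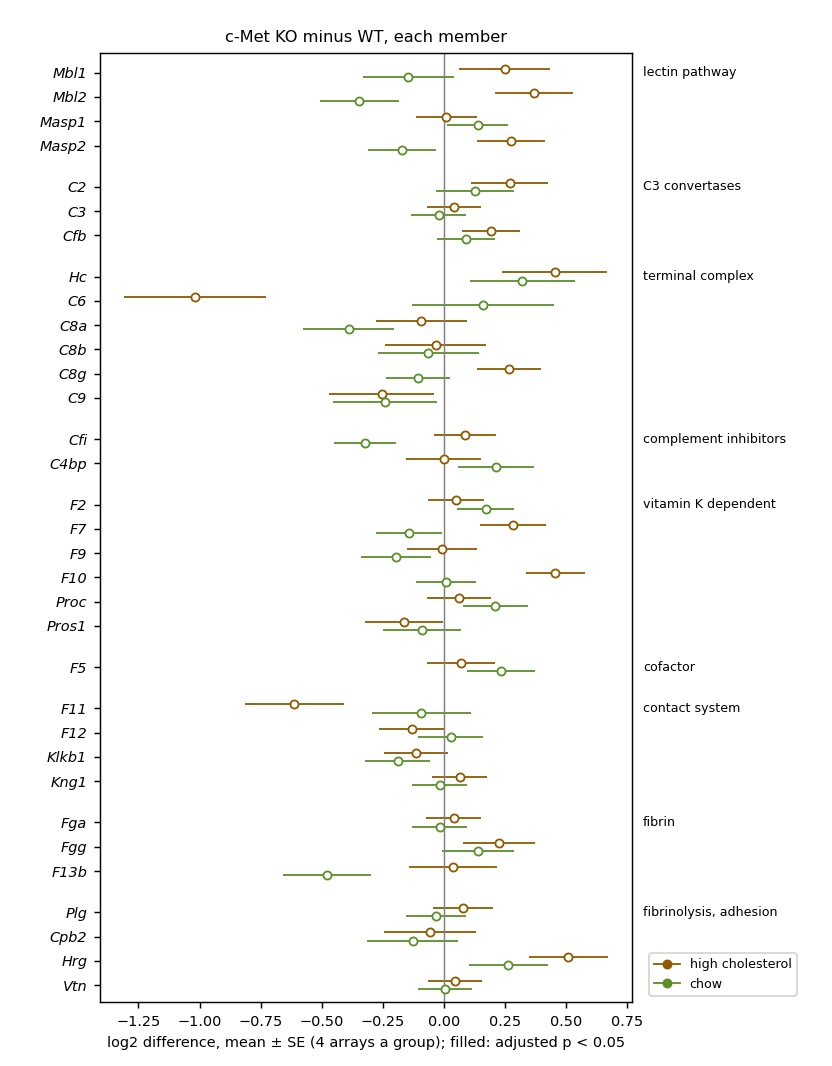
Log2 difference between the genotypes (c-Met KO minus WT) of each member, on the high cholesterol diet in brown above chow in green; points are limma estimates and bars 1 standard error, and an open point did not pass. All points are open, with C6 furthest to the left on the high cholesterol diet at -1.02 and Hrg, F10 and Hc furthest to the right at 0.51, 0.46 and 0.46.

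Whether the diet acted differently in KO and WT was tested as the interaction of diet and genotype. For 0 of 33 members did it pass, where 0.0108% of all genes did, and 6 members had an unadjusted p under 0.05, where 10.4% of all genes did. The 6 were Mbl2 at 0.71 ± 0.23, C6 at -1.18 ± 0.41, F10 at 0.45 ± 0.17, Cfi at 0.41 ± 0.18, Masp2 at 0.44 ± 0.20 and F7 at 0.43 ± 0.19, with adjusted p from 0.382 to 0.46. The members that passed the diet test in 1 genotype were therefore not shown to differ between the genotypes.

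Several members sit next to each other in the genome, which allowed the diet change of a gene to be compared with that of its neighbour on the same arrays. RefSeq's gene table listed all 34 members, and 6 pairs were adjacent coding genes: Cfb and C2 on chromosome 17, Fgg and Fga and also Fga and Fgb on chromosome 3, C8b and C8a on chromosome 4, and F7 and F10 and also F11 and Klkb1 on chromosome 8. The pair with Fgb could not be compared. The remaining 5 pairs gave 10 exact two-sided permutation tests over the arrays of a genotype, with adjustment over the 10. The smallest p that 4 against 4 arrays allow is 0.0286, and the pairs were formed after the values of the genes were known.

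The log2 ratio of F11 to Klkb1 changed on the diet by -1.64 in KO and -1.05 in WT (exact permutation p = 0.0286, adjusted p = 0.0358 for each). That of C8b to C8a changed by -1.47 in KO and -1.20 in WT (exact permutation p = 0.0286, adjusted p = 0.0358 for each). Cfb moved against C2 by 1.58 in KO and 1.62 in WT, and Fgg against Fga by 0.59 in KO and 0.57 in WT, with the same exact permutation p and adjusted p. In these 4 pairs the signals of the neighbours' probes therefore changed unequally in both genotypes. The Fga probe lay close to the top of the array, with signals of 20180 to 32310 where the highest signal of an array was 25836 to 34868, and whether it could still register a rise was not tested. F7 against F10 moved by -0.20 in KO and -0.18 in WT, with overlap of the arrays in WT, and did not pass (exact permutation p = 0.0571 and 0.286, adjusted p = 0.0634 and 0.286).

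The start regions of F11 with Klkb1 and C8a with C8b, whose ratios changed by more than 1 log2 unit in both genotypes, are shown so that the neighbours can be set side by side. Of the 34 members 27 had an entry in the RefSeq promoter table (build GRCm38.p6), and the others were Kng1, Proc, Masp1, Plg, Cfi, Cfb and C2. Each line gives the 250 bases before the annotated start, 5′ to 3′ on the strand of the gene, with matches to any of 8 searched motifs in capitals. F11 lies at chr8:45262032-45262281 and Klkb1 at chr8:45294836-45295085, both on the minus strand, and C8a at chr4:104876399-104876648 on the minus strand and C8b at chr4:104766067-104766316 on the plus strand.
F11: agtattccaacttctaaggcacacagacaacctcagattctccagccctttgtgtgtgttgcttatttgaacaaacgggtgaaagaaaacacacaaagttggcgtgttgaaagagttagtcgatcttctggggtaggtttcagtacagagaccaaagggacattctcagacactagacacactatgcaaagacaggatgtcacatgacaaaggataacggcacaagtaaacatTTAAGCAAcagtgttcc
Klkb1: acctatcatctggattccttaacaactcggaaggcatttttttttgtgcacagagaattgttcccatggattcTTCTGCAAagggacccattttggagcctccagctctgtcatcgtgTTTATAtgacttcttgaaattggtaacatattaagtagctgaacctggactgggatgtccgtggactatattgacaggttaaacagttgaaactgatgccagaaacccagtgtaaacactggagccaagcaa
C8a: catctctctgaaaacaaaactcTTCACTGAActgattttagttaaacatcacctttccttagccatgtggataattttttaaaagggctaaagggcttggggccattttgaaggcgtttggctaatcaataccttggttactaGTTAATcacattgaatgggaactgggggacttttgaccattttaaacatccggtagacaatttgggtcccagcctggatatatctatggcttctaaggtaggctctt
C8b: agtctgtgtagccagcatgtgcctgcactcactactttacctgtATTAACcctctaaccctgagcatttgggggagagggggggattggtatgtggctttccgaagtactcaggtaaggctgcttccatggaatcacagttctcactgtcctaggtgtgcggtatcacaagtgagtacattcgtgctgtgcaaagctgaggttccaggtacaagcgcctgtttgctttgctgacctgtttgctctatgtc

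The motifs were searched on both strands as fixed letters: the HNF1 core GTTAAT, an HNF4 site, a direct repeat and an inverted repeat of nuclear receptor sites, the C/EBP pattern TTGCNNAA, the STAT pattern TTCNNNGAA, an NF-kB site and the TATA box TATAAA. F11 held a C/EBP match from base -17 to -10, and Klkb1 a C/EBP match from base -177 to -170 and a TATA box match from base -132 to -127. C8a held an HNF1 core match from base -107 to -102 and a STAT match from base -228 to -220, and C8b an HNF1 core match from base -206 to -201. Over all 27 members with an entry the HNF1 core was found in 8 (6.43% of 32851 promoters hold it), the C/EBP pattern in 8 (9.56%), the STAT pattern in 6 (7.02%) and the TATA box in 3 (12.4%). The other motifs were found in 0 of the 27 (0.0335% to 0.98% of all promoters). A match is a description of letters and not a bound site.

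For 11 members more than 1 probe passed the filter, 30 probes in all, which showed how far a value depends on the probe. The 2 probes of F11 that were detected on all 16 arrays were at -1.55 and -1.51 in KO and at -1.03 and -0.97 in WT, each with an adjusted p over all probes between 4.04e-05 and 0.00464. Its remaining probe was detected on 9 of 16 arrays, so its change is not given. Both probes of C6 were lower in KO, at -0.89 and -0.91 (adjusted p over probes of 0.0299 and 0.0465). Signs between the diets were opposite for C9, Proc and Plg in KO and for C9, Proc and Hrg in WT. The second Hrg probe was at 0.13 ± 0.28 in KO and -0.29 ± 0.28 in WT, and with the mean of probes Hrg did not pass in WT (0.29, adjusted p = 0.266). The second Kng1 probe, detected on all 16 arrays, rose by 0.46 ± 0.16 in KO and by 0.49 ± 0.16 in WT (adjusted p over probes of 0.0382 and 0.0321). The brightest Kng1 probe did not pass. Its signals were 23990 to 34320, where the highest signal of an array was 25836 to 34868, and whether it could still register a rise was not tested. The second F12 probe rose by 0.47 ± 0.14 in KO (adjusted p over probes of 0.0164) and was at 0.29 ± 0.14 in WT (adjusted p over probes of 0.124). Of the 4 Cpb2 probes only the dimmest passed, at 1.08 ± 0.16 in KO and 0.82 ± 0.16 in WT (adjusted p over probes of 0.000142 and 0.00161). The brightest, used above, did not pass, nor did the others, at 0.10 and 0.38 in KO and at 0.30 and 0.45 in WT.

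**Figure D4:**
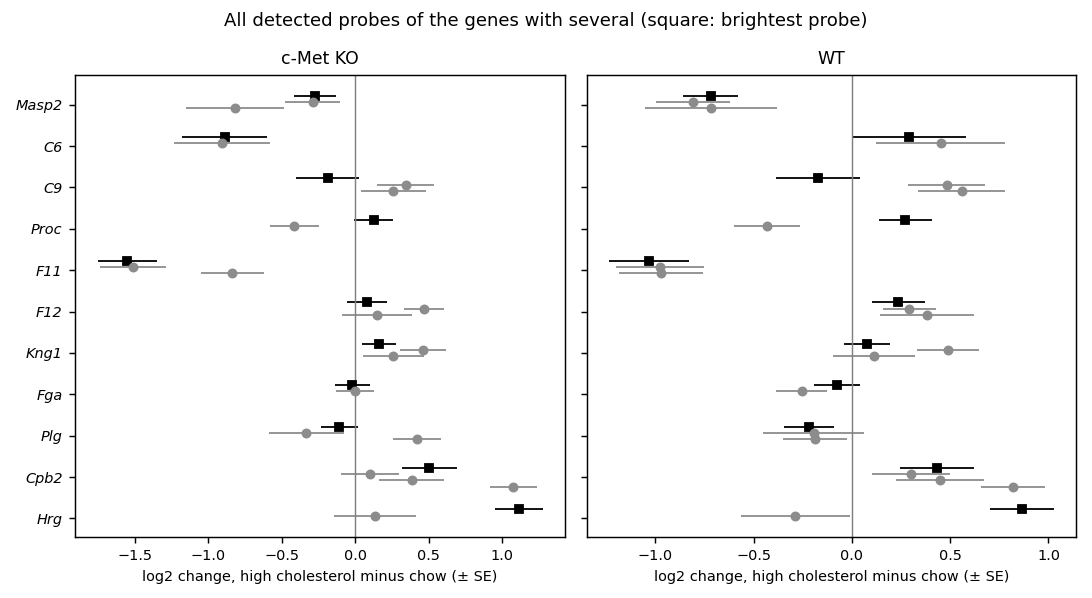
Log2 change between the diets (high cholesterol minus chow) of every probe of the 11 members with several probes, with c-Met KO on the left and WT on the right; squares mark the brightest probe, used for the gene, circles the other probes, and bars 1 standard error. The 2 F11 probes detected on all arrays lie together on the left in both genotypes (the remaining one was detected on 9 of 16 arrays), while the 2 Hrg probes lie apart, at 1.11 and 0.13 in KO and at 0.87 and -0.29 in WT.

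Several members with small positive changes changed sign with the scaling between arrays. Cfb, Hrg and Pros1 stayed positive and F11, C8b, Masp2, Mbl1, F7 and F10 negative in both genotypes with quantile normalization, with the median of the detected probes and with the median of all probes, although not every value passed. With the median of all probes the median change was -0.75 in KO and -0.81 in WT for complement and -0.56 and -0.85 for clotting, beside -0.53 and -0.69 for the 1801 brightest genes. With the median of the detected probes the median of these bright genes was -0.11 in KO and -0.21 in WT, with complement at -0.19 and -0.26 and clotting at -0.05 and -0.29. Of the 25697 probes that set the median of all probes, 12248 passed the filter. The spread of the probes that were never detected also differed between the diet and chow arrays. Its SD was 6.54 to 8.08 intensity units on the diet arrays and 4.47 to 5.51 on the chow arrays. The submitters' sample numbers place all chow samples before all high cholesterol samples, and no slide or run is given. For every diet change given here, a technical difference between the diet and chow arrays therefore cannot be told apart from the diet.

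**Figure D5:**
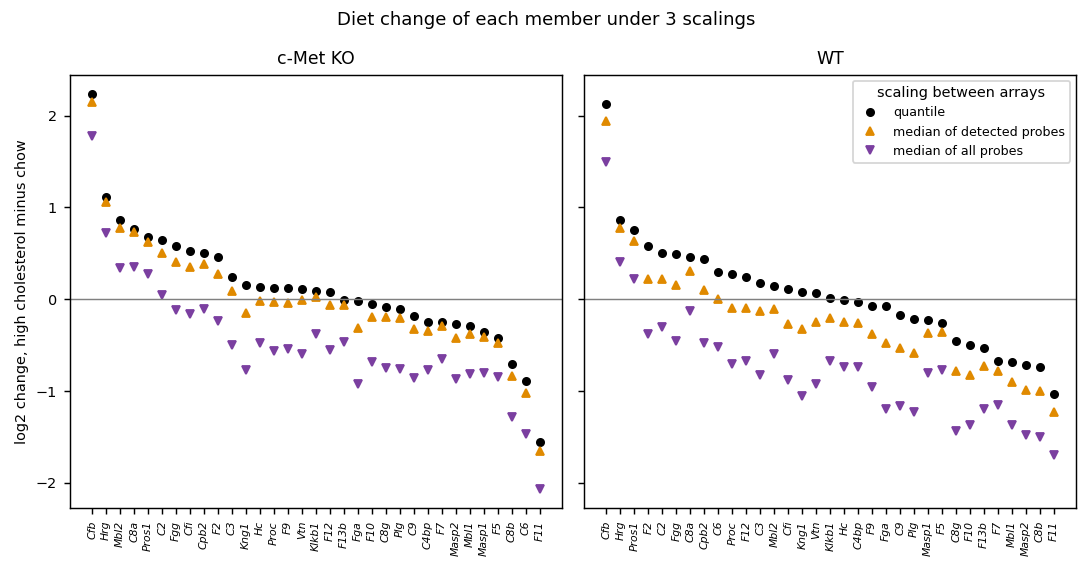
Log2 change between the diets (high cholesterol minus chow) of each member, ordered by its value with quantile normalization (black circles), beside scaling to the median of detected probes (orange) and of all probes (purple), with c-Met KO on the left and WT on the right. Cfb and F11 keep their ends of the order, while F2, C2, Fgg and Cfi lie near or below 0 with the median of all probes.

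Other genes of the same systems were taken from lists of complement and clotting genes outside the members. Of 18 other complement genes tested, 3 were higher and 1 lower on the diet in KO (22.2%), and 1 was higher in WT (5.56%). Their median was -0.06 in both, and of all genes 27.6% changed in KO and 25.4% in WT. Vsig4, a complement receptor of Kupffer cells, rose by 0.60 ± 0.20 in KO (adjusted p = 0.0343). Its mean was also higher on the diet in WT, at 9.84 in HC WT against 9.36 in chow WT (9.99 in HC KO against 9.39 in chow KO). Vsig4 is on the list of 10 Kupffer cell markers, whose mean deviation ran from -0.15 to 1.41 over the HC KO arrays. C4b was at -0.32 ± 0.18 in KO and -0.14 ± 0.18 in WT (adjusted p = 0.198 and 0.602).

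Of 20 other clotting genes, 1 was higher and 4 lower in KO (25%), and 2 higher and 5 lower in WT (35%). Their medians were -0.12 and -0.22, and of all genes 27.6% changed in KO and 25.4% in WT. Lman1 and Mcfd2 encode the 2 subunits of the receptor that carries factors V and VIII out of the endoplasmic reticulum. Lman1 rose by 0.78 ± 0.12 in KO (adjusted p = 0.000154) and by 0.74 ± 0.12 in WT (adjusted p = 0.000273), while Mcfd2 fell by 0.54 ± 0.17 in both (adjusted p = 0.029 in KO and 0.0313 in WT). Proz, the gene of protein Z, a vitamin K dependent cofactor, fell by 0.45 ± 0.15 in KO (adjusted p = 0.0341) and by 0.46 ± 0.15 in WT (adjusted p = 0.0296). Of 5 genes of the vitamin K cycle 0 passed in either genotype with limma, with adjusted p of at least 0.0591, among them Ggcx, the carboxylase that acts on the vitamin K dependent members, at -0.37 ± 0.17 in KO and -0.02 ± 0.17 in WT.

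Of 13 other secreted plasma proteins of hepatocytes, 4 were higher and 1 lower in KO (38.5%), and 3 higher and 0 lower in WT (23.1%). For these lists too the share of all genes was 27.6% in KO and 25.4% in WT. Rbp4, the retinol carrier, rose by 1.39 ± 0.16 in KO and 1.14 ± 0.16 in WT, and Apoh, a phospholipid-binding plasma protein, by 1.01 ± 0.12 in KO and 0.90 ± 0.12 in WT (adjusted p between 1.25e-05 and 9.24e-05). Of 20 genes of the IL-6 and acute phase list 5 were higher and 0 lower in KO (25%), and 2 higher and 0 lower in WT (10%). The mean deviation of this list ran from -0.02 to 1.56 over the HC KO arrays, with replicate 3 the highest. Its counts without that array are not given here, and the interaction of diet and genotype passed for 0 of the 20. Cp, ceruloplasmin, rose by 1.10 ± 0.18 in KO (adjusted p = 0.000302) and by 0.96 ± 0.18 in WT (adjusted p = 0.00107). Of 14 hepatocyte transcription factors and the bile acid receptor, 2 were lower in KO (14.3%) and 3 in WT (21.4%) and 0 were higher. Nr5a2, a nuclear receptor of bile acid and plasma protein genes, fell by 0.51 ± 0.17 in KO (adjusted p = 0.0335) and by 0.50 ± 0.17 in WT (adjusted p = 0.0369), while Nr1h4, the bile acid receptor, was at -0.45 ± 0.21 in KO and -0.41 ± 0.21 in WT (adjusted p = 0.113 and 0.154).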

How the data were processed

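Per the submitters' processing notes, GenomeStudio 2009.1 was used to read the arrays. The deposited intensity values were background-subtracted by the authors, since some are negative, and not normalized between arrays. The deposited detection p-values compare each probe with the negative controls of its array, and the authors' second table held quantile-normalized intensities. Here the intensities were corrected by normexp (offset 16) through the detection p-values, quantile-normalized and put on the log2 scale. A probe had to reach a detection p below 0.05 on 4 or more of the arrays, and the brightest such probe stood for its gene. limma 3.58.1 in R 4.3.3 fitted 4 group means (12 residual degrees of freedom) with 5 contrasts, two-sided, with Benjamini-Hochberg adjustment over 9265 genes at 0.05. The fit was tested on simulated data. Members and gene lists were chosen with earlier results of these data known. All members were named, and of each other list at most the 4 genes with the smallest p in a comparison. Replicate numbers were not treated as pairing the samples, since in no 2 groups did every same-numbered pair correlate above 0.1. The values of 1 gene outside the members are not reported here.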

Additional observations from a re-analysis of the deposited data

Results flagged for a closer look

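Among 132 sets of 4 arrays (33 members in 4 groups), 7 had 1 array far from the other 3 by Dixon's criterion on the gap to the nearest array, where chance alone gives about 1 in 20. HC KO replicate 3 had a Fgg signal of 13.68, against 13.18 to 13.25 on the other HC KO arrays. HC WT replicate 3 was low for F5 at 9.46, against 9.87 to 9.91, and for Cpb2 at 12.29, against 12.69 to 12.77. Chow WT replicate 1 was high for Mbl1 at 11.75, against 11.19 to 11.27, and for Kng1 at 14.81, against 14.62 to 14.66. Mbl2 was low on chow WT replicate 3 at 10.74, against 11.36 to 11.38, and Fga on chow WT replicate 2 at 14.46, against 14.68 to 14.70.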

How the results depend on the processing

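Changes called in all 27 settings were those of Cfb, F11 and Hrg in KO and of Mbl1, Masp2, Cfb, F7, F10 and F11 in WT. Both scalings to a median moved bright genes down on the diet, so they did not challenge the calls of lower members (Mbl1, Masp2, F7, F10 and F11). Scaling to the median of all probes moved the members called to 23 in KO and 29 in WT, and all genes called to 3793 (951 higher and 2842 lower) in KO and 4171 (973 higher and 3198 lower) in WT. It turned these diet changes from positive to negative, with a call under quantile normalization or under this scaling, in KO: C3 -0.50, Cfi -0.166, F2 -0.236, F9 -0.54, Proc -0.56, F12 -0.554, Klkb1 -0.384, Kng1 -0.77, Fgg -0.12 and Vtn -0.592. In WT it did so for Mbl2 -0.60, C2 -0.301, C3 -0.822, Cfi -0.879, F2 -0.378, Proc -0.71, F12 -0.668, Klkb1 -0.672, Kng1 -1.053, Fgg -0.459, Cpb2 -0.476 and Vtn -0.928. The median of the probes detected on all arrays, chosen after seeing the data, turned Kng1 in WT to -0.323 with a call, and several other uncalled changes also became negative. With a call under neither, the median of all probes also turned Hc (-0.479) and Cpb2 (-0.112) in KO and C6 (-0.518) and C8a (-0.13) in WT. The cause was not tested.

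Between KO and WT on chow, where limma called 0 genes (1470 at an unadjusted p under 0.05), the count was 5 without normexp, 20 with the median of all probes, 3 with that of detected probes, 5 with the authors' table, 3 with no detection filter, 3 with the mean of probes, 1 with trended robust variance, 351 with array weights and 74 with only the groups compared. On the high cholesterol diet the 15 genes became 0 with only the groups compared. The interaction's 1 gene became 4 without normexp, 2 with the median of all probes, 4 with the authors' table, 0 with no detection filter and 3 with array weights. With each array left out in turn, counts were 7 to 25 genes for KO against WT on the high cholesterol diet (7 without HC WT replicate 3 or HC KO replicate 2, 25 without HC WT replicate 4), 0 to 11 on chow and 0 to 9 for the interaction. Members called were 11 to 15 in each genotype for diet and 0 for the other comparisons.

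With the replicate number as a block, 13 members were called in KO and 15 in WT, and 2 genes on chow and 0 for the interaction. Correlations of same-numbered samples ran from -0.124 to 0.274, with 7 of 24 pairs over 0.1. Between HC KO and HC WT they were 0.221, 0.099, 0.259 and 0.274, so a shared factor of these numbers on the high cholesterol diet cannot be dismissed, although in no 2 groups were all 4 over 0.1. The slide as a block was not run, because the files used here give no slide. Whether slide and diet coincide is therefore not known.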
